A study of Triticum aestivum with 2 samples.

Results

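The Wheat Genome Array carries 61115 wheat probe sets for 55049 design sequences, and 168 of these sequences were tiled with probe sets in both orientations, at least 1 of them with the letter S for sense and at least 1 with the letter A for antisense in its name. The sequences described here are 161 of the 168. The letters come from the array's design, whereas the other 7 were left out by name or because the study lists probe sets of theirs, and such lists rest on signals of these arrays. All 7 had S brighter in the 3'IVT and A in the WT assay, so leaving them out lowered the count of that pattern from 109 of 168 to 102 of 161. The 161 sequences hold 345 probe sets, 178 with the letter S and 167 with the letter A, and 139 of them have a single probe set for each letter. RNA from 5 tissues of the wheat genotype 'Chinese Spring' (seed germinated in the dark, young shoot, flag leaf, and spike before and after anthesis) was mixed at equal concentrations, so no value belongs to a single tissue. The same mixture was read once by the 3'IVT assay, labelled as the sense target, and once by the WT assay, labelled as the antisense target. The 3'IVT assay primes on the poly(A) tail with oligo(dT) and the WT assay along the RNA with random primers, so the assays differ in priming as well as in the strand labelled. Bread wheat is hexaploid, and homoeologous gene copies can share a probe set. Neither assay had a replicate array, so there is no replicate error for any value and nothing was tested.

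Natural antisense transcripts are RNAs complementary to another transcript, and pairing between such RNAs is known in plants as a source of small RNAs that silence genes. On most sequences of this array the strand reported depends on the assay, because there is only 1 orientation of probes. An S probe set matches the cRNA that the 3'IVT assay makes from sense RNA, and in the WT assay, which labels the opposite strand, it matches cDNA that derives from antisense RNA. An A probe set of the same sequence does the reverse, reading antisense RNA in the 3'IVT assay and sense RNA in the WT assay. Each strand of these 161 sequences was therefore read in both assays, by probes of opposite letters, if the letter in the name gives the true orientation.

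All signals below are log2 values of the deposited linear intensities, which are scaled within each array, so levels were compared within an assay only. Probe sets for reporter genes that wheat does not carry gave the background, with a highest log2 signal of 7.02 with the 3'IVT assay and 11.76 with the WT assay over 63 probe sets. The lowest of 9 probe sets for the spike-in bioB was at 9.69 and 15.19 in the deposited values, which are on another scale than the summarized values to which the study applied its bioB threshold. Probe sets for the same region of a spike-in differed with an SD of 0.32 log2 units with the 3'IVT assay and 0.26 with the WT assay (27 probe sets, 9 regions). Of 6 probe sets for RUBISCO small subunit, RUBISCO activase and chlorophyll a/b binding protein, 4 exceeded the lowest bioB signal with the 3'IVT assay. These probe sets were taken from the study's lists, which rest on signals of these arrays. The count therefore cannot show how far green tissue was represented. Probe sets differ in affinity and in their place along a transcript, so a difference between letters is one of signal and not by itself of RNA abundance.

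The letters separated in opposite directions in the assays. In the 3'IVT assay the S probe sets of these sequences had a median log2 signal of 6.61 and the A probe sets 4.55. The order was turned in the WT assay, with 8.37 for the S probe sets and 10.34 for the A probe sets. Above the highest reporter gene in the 3'IVT assay lay 73 of the 178 S probe sets (41.0%) and 11 of the 167 A probe sets (6.59%), where the whole array had 44.9%. In the WT assay 6 of the S probe sets (3.37%) and 44 of the A probe sets (26.3%) lay above it, where the whole array had 3.26%. The S probe sets were thus close to the array as a whole in each assay, whereas the A probe sets were low in the 3'IVT and high in the WT assay.

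**Figure D1:**
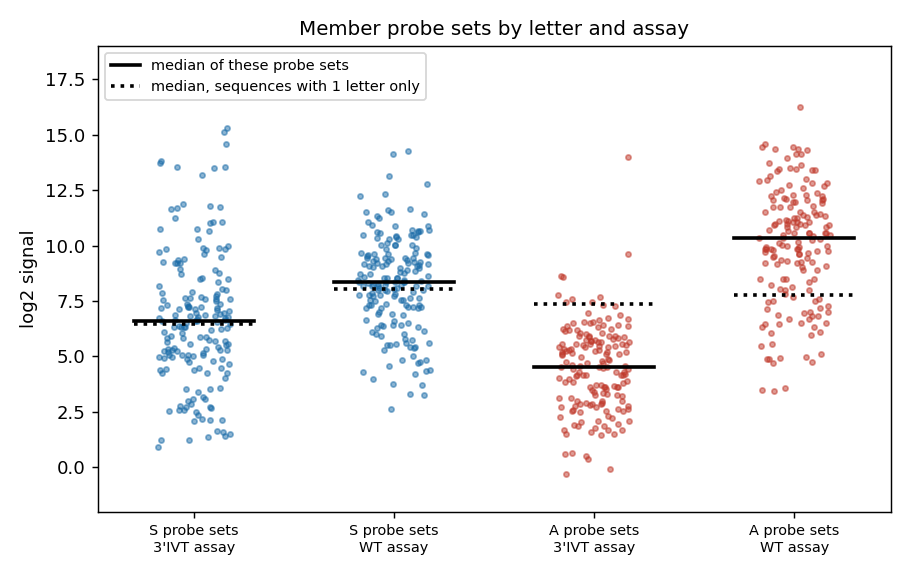
Log2 signal of every S and A probe set of the 161 sequences (points, spread sideways for legibility) in each assay, with their median (solid line) and the median of probe sets whose sequence has that letter only (dotted line). The A probe sets sit below the dotted line in the 3'IVT assay (4.55 against 7.36) and above it in the WT assay (10.34 against 7.76).

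A-lettered probe sets on sequences that have no S probe set did not behave this way. Those 10469 probe sets had a median of 7.36 with the 3'IVT assay and 7.76 with the WT assay, and 55.6% and 2.85% of them were above the highest reporter gene. The S probe sets of sequences with the letter S only (50285) had medians of 6.46 and 8.05, near those of the S probe sets described here. The low 3'IVT and high WT signal of A probe sets was therefore seen where the sequence also had an S probe set, and not for the letter A over the rest of the array. This is a description of medians on 1 array per assay.

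Sequence by sequence, S was brighter in the 3'IVT assay for 121 of 161 sequences (75.2%) and A was brighter in the WT assay for 122 (75.8%). Both held for 102 sequences (63.4%), the pattern in which each assay reads the strand called sense more brightly. The opposite pattern, A brighter in the 3'IVT and S in the WT assay, was found for 20 sequences (12.4%). In 19 sequences (11.8%) S was brighter in both assays and in 20 (12.4%) A was brighter in both. The median difference, S minus A, was 2.02 log2 units with the 3'IVT assay (quartiles 0.04 and 3.86, range -6.46 to 10.61) and -2.17 with the WT assay (quartiles -3.49 and -0.27, range -8.03 to 4.85).

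**Figure D2:**
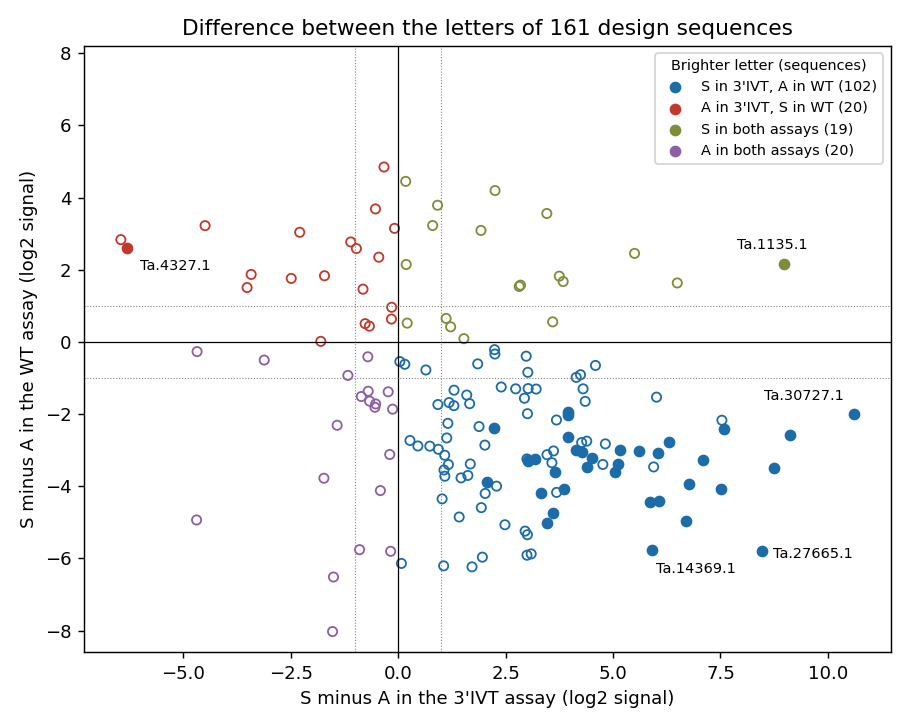
S minus A in log2 signal for each of the 161 sequences, with the 3'IVT assay (x axis) and with the WT assay (y axis), coloured by the brighter letter. Dotted lines mark 1 log2 unit, and filled points are the 37 sequences past this margin with their brighter letter above the highest reporter gene in both assays, 35 of which lie at the lower right.

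With a margin of 1 log2 unit, S was higher in the 3'IVT assay for 107 of the 161 sequences, where the share among all 168 with both letters was 67.9%. A was higher for 18, against a share of 10.7% among the 168. A was higher by the margin in the WT assay for 107 of the 161 (67.9% of the 168) and S for 29 of the 161 (17.3% of the 168). Since the 161 make up nearly all of the 168, these shares only describe them. A margin of this size is not rare between probe sets that read the same strand. Over the array, pairs of probe sets of the same sequence and letter differed by at least 1 log2 unit in 47.4% of 5605 pairs in the 3'IVT assay and in 58.7% in the WT assay, with median absolute differences of 0.92 and 1.30. Between the letters the median absolute differences were 2.48 and 2.79. What set the letters apart more clearly was the sign, since the difference had opposite signs in the assays for 75.8% of the 161 sequences and for 43.1% of the same-letter pairs.

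For 22 sequences a letter has more than 1 probe set, so that the spread within a letter can be seen. In each of the 22 the single probe set of one letter lay outside the range of the other letter, in the 3'IVT assay as in the WT assay, and this held for 100% of the sequences of this kind before any was left out (24), in either assay. The same letter still varied, because 9 of 22 same-letter pairs in these sequences differed by 1 log2 unit or more in each assay. TaAffx.143995.11 has the most probe sets, with 3 A probe sets at 4.29, 5.26 and 7.75 in the 3'IVT assay against 9.38 for its S probe set. Its A probe sets were at 10.04, 10.64 and 12.29 in the WT assay and its S probe set at 7.96.

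Sequences with opposite brighter letters were more frequent at higher signal. Where the brighter letter of the 3'IVT assay was under 5 log2 units, 14 of 29 sequences (48.3%) had opposite letters brighter in the assays. From 5 up to the highest reporter gene it was 49 of 67 (73.1%), from there to the lowest bioB probe set 36 of 41 (87.8%), and above the lowest bioB probe set 23 of 24 (95.8%), of which 22 had S brighter in the 3'IVT assay. Grouped by the brighter letter of the WT assay the shares were 13 of 24 (54.2%) under 8 log2 units, 26 of 43 (60.5%) from 8 to 10, 43 of 51 (84.3%) from 10 to the highest reporter gene, and 40 of 43 (93.0%) above it. Sequences with the same letter brighter in both assays were thus most frequent at the lowest signals, within the range of the reporter genes.

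**Figure D3:**
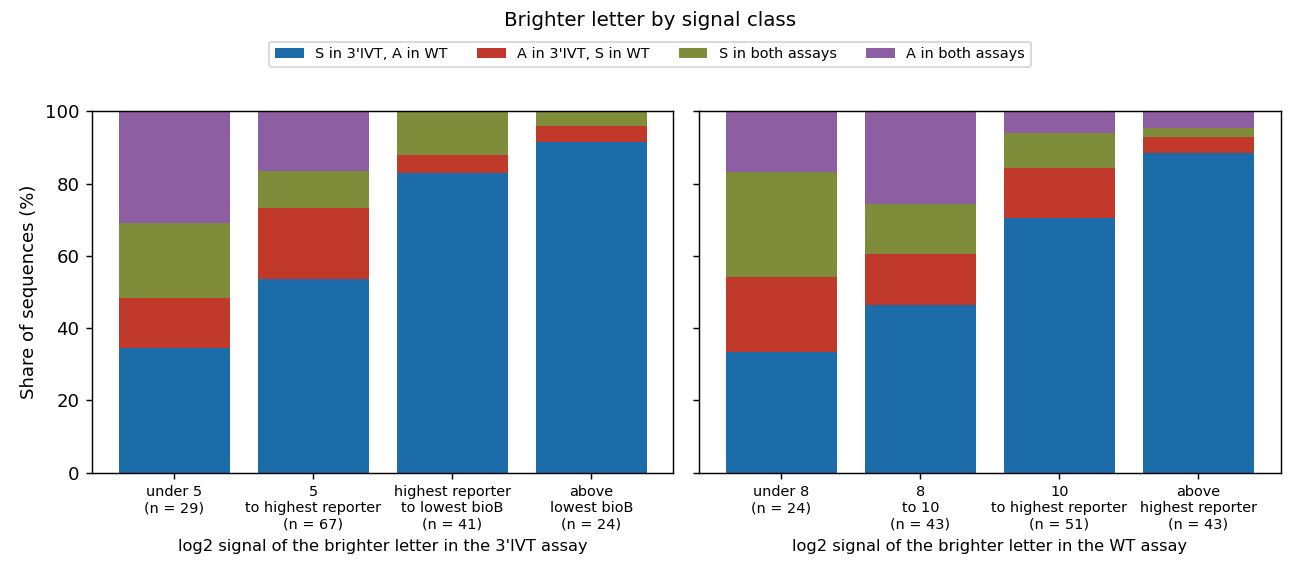
Share of the 161 sequences in each class of brighter letter, by the log2 signal of the brighter letter with the 3'IVT assay (left) and with the WT assay (right), with the number of sequences under each bar. The share with S brighter in the 3'IVT and A in the WT assay reaches 91.7% (22 of 24) above the lowest bioB probe set of the 3'IVT assay.

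In both assays 37 sequences passed the margin of 1 log2 unit with their brighter letter above the highest reporter gene (25.6% of the 168 sequences passed, and 1.46% of the same-letter pairs). Of the 37, 35 had S brighter in the 3'IVT and A in the WT assay (24.4% of the 168), 1 had the opposite pattern, 1 had S brighter in both, and none had A brighter in both. The signs were opposite for 97.3% of the 37, against 13.4% of the 82 same-letter pairs that passed the same rule. Among the 35, S exceeded A by 2.07 to 10.61 log2 units in the 3'IVT assay (median 5.05), and A exceeded S in the WT assay by a median difference of -3.30 (S minus A, -5.80 to -1.94). The dimmer letter was mostly not above the highest reporter gene (median 5.00 for A in the 3'IVT assay and 9.40 for S in the WT assay), so the sizes and the order of such differences are uncertain and the sign is what they show. The count of 35 depended on the background chosen, being 1 with the lowest bioB probe set, 82 with the median reporter gene and 85 with no background. It was 21 where shared probe sets were left out.

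Ranked by the smaller of their differences in the assays, the first of the 37 were Ta.27665.1 and Ta.14369.1, neither of which has a gene symbol in the annotation. Their order turned where shared probe sets were left out, with WT differences of -5.68 and -5.76. The S probe sets of Ta.27665.1 were at 9.99 and 11.06 in the 3'IVT assay, where its A probe set was at 2.06. With the WT assay the A probe set was at 14.13 and the S probe sets at 8.45 and 8.21, so the letters exchanged places completely. Ta.14369.1 had 13.52 for S and 7.61 for A in the 3'IVT assay, and 8.70 for S and 14.45 for A in the WT assay. Here the A probe set was also above the highest reporter gene in the 3'IVT assay, although 5.91 log2 units under the S probe set.

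Ta.30640.1 (LOC100037541) had 11.86 for S and 5.18 for A in the 3'IVT assay, and 8.99 and 13.96 in the WT assay. Ta.20692.1 (LOC542911) had 11.74 and 5.88, and then 8.30 and 12.75. Both belong to gene models of the current reference that carry a locus name only. Ta.24086.1 was dimmer in the 3'IVT assay, with 7.58 for S and 1.51 for A, and had 8.10 and 12.52 in the WT assay. All 5 of these had the brighter strand on the same side in each assay, by at least 4.42 log2 units.

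**Figure D4:**
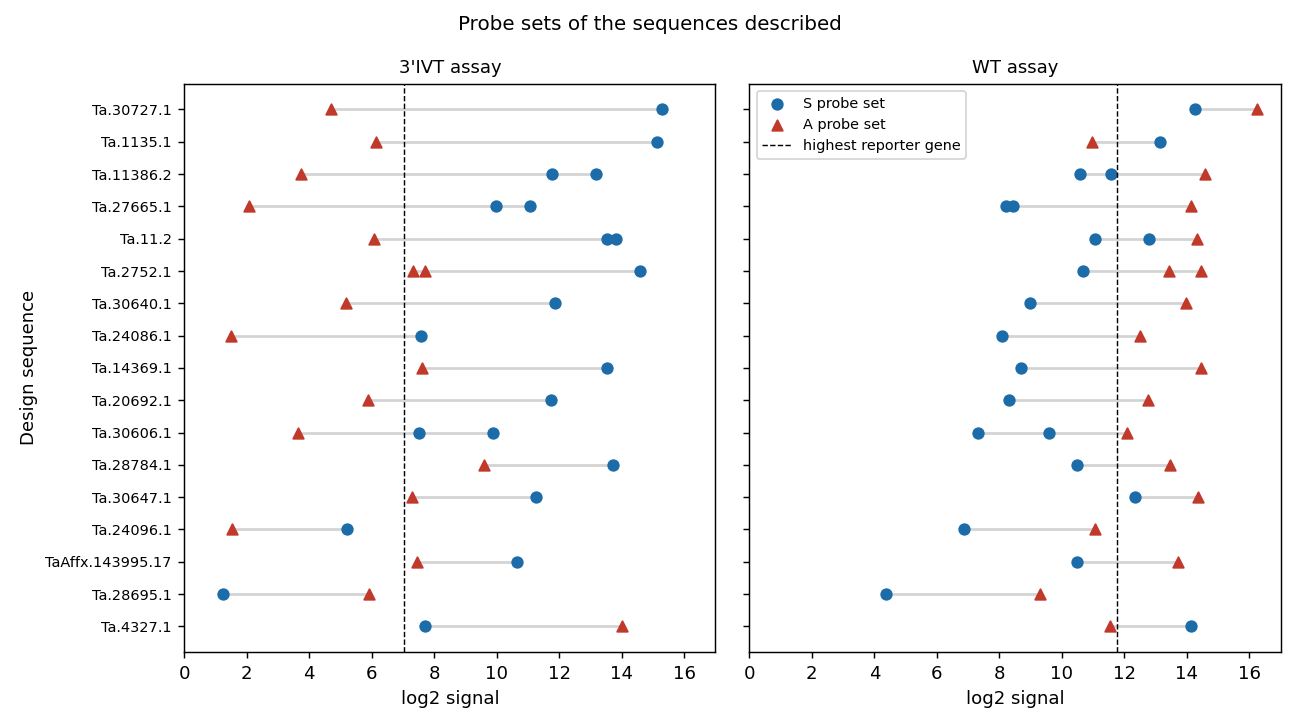
Log2 signal of each S probe set (circles) and A probe set (triangles) of 17 sequences in the 3'IVT assay (left) and the WT assay (right), with grey lines from the lowest to the highest probe set and the highest reporter gene as a dashed line. Circles lie right of triangles in the 3'IVT assay and left of them in the WT assay for 14 of the 17 sequences, and Ta.4327.1, Ta.1135.1 and Ta.28695.1 depart from this. The sequences were chosen partly by class and brightness, so the 14 of 17 reflects that choice.

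The brightest sequence in either assay was Ta.30727.1, which has no gene symbol. It had 15.30 for S and 4.70 for A in the 3'IVT assay, the largest difference of the 161 sequences, and 14.26 for S and 16.26 for A in the WT assay. Its A probe set was the only one of the 345 above the lowest bioB probe set of the WT assay (0.367% of the array was above it). The letters were 2.00 log2 units apart in the WT assay and both were above the highest reporter gene, whereas in the 3'IVT assay the A probe set was below it.

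Ta.2752.1 has no gene symbol. It shares its design cluster with probe sets listed as the small subunit of RUBISCO, the carbon-fixing enzyme of the chloroplast. Whether Ta.2752.1 itself reads that gene was not tested. The S probe set of Ta.2752.1 was at 14.59 in the 3'IVT assay and its A probe sets at 7.69 and 7.32. In the WT assay S was at 10.66 and the A probe sets at 13.42 and 14.45. Ta.11386.2 (LOC542880) was also among the brightest in the WT assay, at 14.58 for A against 10.59 and 11.59 for S. In the 3'IVT assay its S probe sets were at 13.17 and 11.77 and its A probe set at 3.74. In both sequences the letters did not overlap in either assay, with S high in the 3'IVT and A high in the WT assay.

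Ta.4327.1 (LOC606361) was the single sequence past the margin and the background with the letters turned round. Its A probe set was at 14.01 in the 3'IVT assay and its S probe set at 7.70, and in the WT assay A was at 11.53 and S at 14.13. These are the highest A signal in the 3'IVT assay and the second highest S signal in the WT assay among the 161 sequences, and its A probe set was the only one of the 167 above the lowest bioB probe set of the 3'IVT assay (17.3% of the array was above it). Its probe sets come from different source records, and the A probe set carries the suffix for probes that may match other sequences. Read by the letters, the antisense strand of this sequence was the brighter one in both assays. Without shared probe sets it has no A probe set left and drops out. Whether its letters are exchanged in the name was not tested.

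Ta.1135.1 was the single sequence past both criteria with the same letter brighter in both assays. It had 15.13 for S and 6.14 for A in the 3'IVT assay, and 13.13 for S and 10.96 for A in the WT assay. By the letters, the 3'IVT assay read the sense strand brighter and the WT assay the antisense strand. In the WT assay its A probe set was below the highest reporter gene, although its S probe set had the second highest 3'IVT signal of the 161 sequences.

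The strand called antisense was above the highest reporter gene in the 3'IVT assay (the A probe sets) for 9 sequences and in the WT assay (the S probe sets) for 6, or 13 sequences in either assay. Over the whole array 44.9% and 3.26% of probe sets lay above it, so the 9 of 161 were far under the array's share and the 6 of 161 near it. For comparison, the strand called sense was above it for 63 sequences with the 3'IVT and 40 with the WT assay. In both assays the sense strand was above it for 35 sequences and the antisense strand for 2, Ta.4327.1 and Ta.30647.1. Ta.30647.1 (LOC543023) had 11.24 for S and 7.29 for A in the 3'IVT assay, and 12.34 for S and 14.37 for A in the WT assay. It was the only 1 of the 161 sequences with each letter above the highest reporter gene in each assay, and its antisense readings exceeded that gene by under 1 log2 unit.

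**Figure D5:**
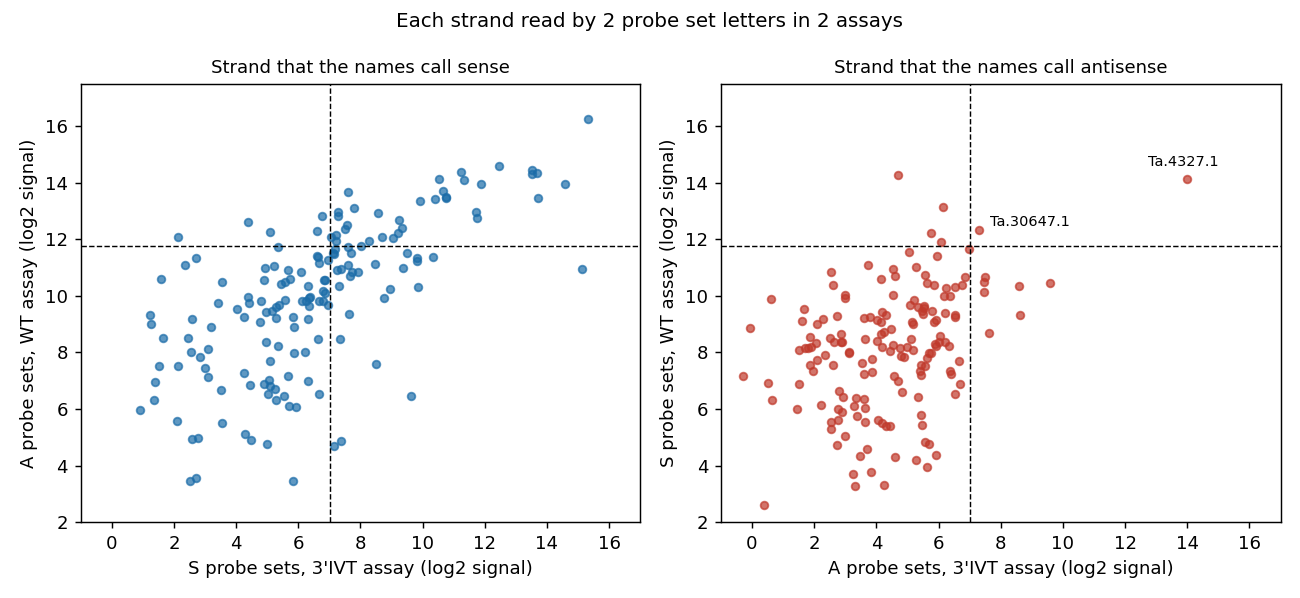
Log2 signals for the strand that the names call sense (left, S probe sets in the 3'IVT assay against A probe sets in the WT assay) and for the strand called antisense (right, A probe sets in the 3'IVT assay against S probe sets in the WT assay), 1 point for each of 161 sequences. Dashed lines mark the highest reporter gene in each assay, and the upper right field holds 35 sequences on the left and 2 on the right.

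The other sequences with the antisense strand above the highest reporter gene passed it in a single assay. In the 3'IVT assay the A signals were 9.60 for Ta.28784.1 (LOC543254), 8.61 for Ta.46.1 (LOC543224), 8.59 for Ta.28791.1, 7.61 for Ta.14369.1, 7.50 for Ta.2752.1, 7.47 for Ta.27572.1 and 7.46 for TaAffx.143995.17. In the WT assay the S signals were 14.26 for Ta.30727.1, 13.13 for Ta.1135.1, 12.24 for Ta.27509.1 and 11.92 for Ta.11.2 (LOC543297). These are letter means over probe sets. Ta.46.1 stood apart because its letters hardly differed, at 8.77 for S and 8.61 for A in the 3'IVT assay and 9.31 and 9.93 in the WT assay. Ta.28784.1 had a strong reading of the sense strand as well, with 13.73 for S in the 3'IVT and 13.46 for A in the WT assay.

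Across the 161 sequences, the S signal of the 3'IVT assay and the A signal of the WT assay, which read the same strand by name, had a Spearman rho of 0.685, and of 0.665 without the 20 sequences of the largest design cluster. The rho was 0.362 between A in the 3'IVT and S in the WT assay, 0.414 for the S probe sets and 0.198 for the A probe sets between the assays, and 0.284 over all wheat probe sets of the array. These correlations run across sequences, which share an array and are not independent replicates, and signals of the same probe set in both assays share its probes. Of these pairings, the readings of the sense strand thus ranked the sequences most alike although they come from different probes. The strand called antisense was above the highest reporter gene for 9 (3'IVT) and 6 (WT) sequences only, against 63 and 40 for the strand called sense. The antisense rho therefore rests mostly on low, noisy signals, and whether this lowers it was not tested.

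In the WT assay alone the sense strand was above the highest reporter gene for 5 sequences, and in the 3'IVT assay alone for 28. Ta.24103.1 had 12.06 for A in the WT assay and 2.13 for S in the 3'IVT assay, and Ta.27508.1 had 12.61 and 4.39. TaAffx.120246.1 had 12.25 and 5.09. The other two, Ta.28604.1 (LOC543427) with 12.28 and 6.60 and Ta.30653.1 with 12.81 and 6.77, came close to the highest reporter gene of the 3'IVT assay (7.02). In Ta.24103.1 and TaAffx.120246.1 the A probe set was the brighter letter in both assays.

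A gene symbol of the reference annotation could be given to 44 of the 161 sequences, of which 42 are protein-coding models and 2 are classed as misc_RNA. Almost all are locus names without a description, so no member could be placed in a functional list by its own product name. Of the 44, 32 (72.7%) had S brighter in the 3'IVT and A in the WT assay, against 70 of 117 (59.8%) without a symbol. For 33 sequences both letters have the same source record, so their probes read opposite strands of it if the letters give the true orientation. S was brighter in the 3'IVT and A in the WT assay for 24 of them. Over the 33, the median differences were 2.95 with the 3'IVT and -3.38 with the WT assay. For 7 sequences the letters come from different records, and 5 had the pattern, with medians of 3.58 and -2.03. Of the 42 gene models placed on a chromosome, 1 overlaps another model and none overlaps a long non-coding RNA.

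A few symbols carry older names. Ta.23665.1 (LOC543278) has the synonym AGA.1, the name of a wheat ADP-glucose pyrophosphorylase, the enzyme that supplies the sugar donor for starch. It had 10.77 for S and 6.37 for A in the 3'IVT assay, and 10.01 and 13.47 in the WT assay. Ta.30652.1 (LOC543050), whose synonym at2G04570 is an Arabidopsis locus name, had S brighter in both assays, with 8.50 for S and 3.00 for A in the 3'IVT and 10.04 and 7.59 in the WT assay. Its WT signals were below the highest reporter gene, so it did not pass the background criterion.

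Further sequences with a gene symbol showed how the classes look at lower signal, although Ta.30606.1 still passed the margin and the background in both assays. Ta.30606.1 (LOC543377) had S probe sets at 7.53 and 9.87 in the 3'IVT assay against 3.65 for A, and at 9.60 and 7.32 in the WT assay against 12.08. The S probe set that was brighter in the 3'IVT assay was the dimmer one in the WT assay. Ta.24096.1 (LOC542977) had 5.21 for S and 1.52 for A in the 3'IVT assay and 6.88 and 11.05 in the WT assay, a wide separation under the highest reporter gene in both. Ta.28695.1 (LOC542898) had 1.23 for S and 5.92 for A in the 3'IVT assay and 4.37 and 9.31 in the WT assay, so its A probe set was the brighter by 4.69 and 4.94 log2 units with all signals under the highest reporter gene.

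The design cluster of TaAffx.143995.3 holds 20 of the 161 sequences, 1 other cluster holds 2 and the other 139 clusters hold 1 each. A probe set of this cluster is listed as a COBRA-like protein, a family anchored at the plasma membrane and known from Arabidopsis for its part in the orientation of cellulose in the cell wall. Sequences of 1 cluster were grouped by the shared part of their names, and their resemblance was not tested. Their probes may share targets, so the 20 cannot be taken as independent. Of the 20, 15 had S brighter in the 3'IVT and A in the WT assay (64.9% of the 168 sequences with both letters did), 3 had S and 1 had A brighter in both, and 1 had the opposite pattern. The median difference was 2.92 log2 units with the 3'IVT and -3.01 with the WT assay, and 6 of the 20 passed the margin and the background in both assays, where 25.6% of the 168 passed. Neither share sets the cluster apart. The brightest was TaAffx.143995.3, with 13.52 for S and 6.75 for A in the 3'IVT assay and 10.37 and 14.30 in the WT assay. TaAffx.143995.4 was at 9.22 for S and 1.71 for A in the 3'IVT assay, where A was far under the highest reporter gene, and had 8.15 and 12.23 in the WT assay. TaAffx.143995.9 had 7.60 for S and 4.14 for A in the 3'IVT assay, and 8.64 and 13.65 in the WT assay. The exceptions were dim, with no signal above the highest reporter gene in either assay.

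The 59 sequences outside the main pattern were mostly dim. The median of the brighter letter was 5.65 log2 units with the 3'IVT and 9.64 with the WT assay for the 20 sequences with A and then S brighter, 5.83 and 8.64 for the 19 with S brighter in both, and 5.36 and 9.46 for the 20 with A brighter in both, against 7.22 and 11.13 for the 102. Of the sequences with A and then S brighter, Ta.28791.1 had 2.14 for S and 8.59 for A in the 3'IVT assay and 10.35 and 7.52 in the WT assay. Ta.27509.1 had 1.26 and 5.75, and then 12.24 and 9.02. Each of them was above the highest reporter gene in a single assay only. Ta.28705.1 (LOC542926) showed the same order with all signals below it, its S probe sets being at 2.69 and 2.20 in the 3'IVT assay against 5.87 for A, and at 9.41 and 11.35 in the WT assay against 8.51.

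Among sequences with S brighter in both assays, Ta.10782.2 had 9.63 for S and 6.17 for A in the 3'IVT assay and 10.01 and 6.45 in the WT assay, and Ta.18248.1 had 7.39 and 5.13, and then 9.07 and 4.88. In each the WT signals were below the highest reporter gene. Among those with A brighter in both, Ta.24085.1 had the largest WT difference of the 161 sequences, at 3.30 for S and 11.33 for A, where the 3'IVT assay had 2.71 and 4.23. Its WT signal for A was below the highest reporter gene (11.76).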

How the data were processed

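RNA of 5 pooled tissues was hybridized to 2 arrays, 1 per assay. Per the labels, the authors made the deposited signal intensity of each probe set with MAS5, which corrects for background and mismatch probes and scales the arrays separately (2% trimmed means of 500.3 and 500.2). The lists of the study instead use RMA summarized values with Present calls, which were not used here. Each intensity was taken to log2 and averaged over the probe sets of a sequence and letter (S or A), and letters were compared within an array. Because levels are scaled per array, none was compared between assays. Low MAS5 signals are noisy, so a second count required a margin of 1 log2 unit and a brighter letter above the highest of 63 reporter-gene probe sets (64 without 1 in the range of creX) in both assays. With 1 array per assay no test was made, and precision is limited by there being 1 array per assay. The threshold bioB was the lowest of 9 probe sets.

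Sequences were taken by name, without those left out by name and without probe sets in the study's lists. The members and lists were chosen with earlier results of these data known. The sequences named in the text were, among those past margin and background, up to the first 5, 5, 3 and 3 of the 4 classes by the smaller difference (5, 1, 1 and 0 were found), the 4 with the highest single probe set in each assay, those above the lowest bioB probe set of the WT assay, and the 6 with a gene symbol and the largest smaller difference, which gave 13 sequences. Further sequences were chosen with their values in view, as were the counts by signal and the same-letter pairs, which take the first 2 probe sets of a sequence and letter by name. Gene symbols come from the platform annotation, brought up to date through the RefSeq gene table (assembly IWGSC CS RefSeq v2.1), from which names and overlaps alone were taken. The keyword lists had no member, as only locus names are given. Software was Python 3.11.15, numpy 2.4.6, pandas 2.3.3 and matplotlib 3.10.9. The counting steps were run on simulated data for 161 sequences, of which 161 were recovered in their class and 90 of 90 past the margin. All simulated signals lay above the highest reporter gene, with noise much smaller than the difference between letters. Full recovery was thus built in, and it checks the counting but not the accuracy of the classes in the measured signals.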

Additional observations from a re-analysis of the deposited data

How the results depend on the processing

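Of 80 alternative values for the class counts and median differences, 61 stayed within 1.5 times the count or within the spike-in SD of the value, and 19 did not. Most are counts, which have no sign. A pseudocount, quantile normalization or the highest probe set of a letter cannot turn the order of letters that do not overlap. In none of the 161 sequences did they overlap, so the unchanged class counts under the pseudocount and the highest probe set carry no information. The median differences kept their sign, which could have turned only where the set of sequences changed. Of 94 alternative values for the named sequences, 42 moved by more than the spike-in SD. None changed sign, but none could, since each setting used for them keeps the order of letters that do not overlap. The number of sequences past margin and background depended mostly on the background. With no filter on low signals the counts were 85 for S with the 3'IVT and A with the WT assay, 9 for the opposite, 10 for S in both and 5 for A in both, and with the median reporter gene 82, 8, 8 and 5. With the lowest bioB probe set 1 sequence was left in the first class, and the others had 0. Without shared probe sets, which leaves 132 sequences, the first class had 21 and the opposite class 0. Without the margin but with the background the counts were 35, 1, 1 and 0. A pseudocount of 16, which narrows log2 differences by construction, gave a median 3'IVT difference of 1.23. Quantile normalization gave a median WT difference of -2.56, and the cause of that shift was not tested. No paired analysis was possible because each assay has 1 array and no test was made. Depth has no equivalent here, and most signals lie within the range of the reporter genes, with the brighter letter not above the highest reporter gene for 96 of 161 sequences (3'IVT) and 118 (WT).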
